A study of Mus musculus with 4 samples.

Results

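The region described here is the stretch of mouse chromosome 6 from 28 to 58 Mb (build mm10), which holds Ezh2 at 47530274 to 47595270. Its members are the 1307 distinct variant sites, 1125 single-nucleotide variants (SNVs) and 182 insertions or deletions (indels), that both deposited callers listed with at least 10 reads of depth, 3 variant reads and a variant allele fraction of 0.10. They are part of 60602 such sites in the whole exome data. The allele fraction is the share of reads at a site that carry the variant. The window was chosen by the allele fractions of these same calls, which are high in it, and the members were selected on depth and fraction, so fractions are given as a description, with no test. All 4 samples come from 1 group: c-Kit+ leukemia cells from the bone marrow of moribund C57BL/6 mice with the genotype E2-KO, which combines Nras-G12D with Ezh2 KO. Every sample thus carries both alleles, no control or normal tissue enters the comparison, and neither the Cre driver nor the age of the mice nor how the alleles were built is given here. Samples are numbered as replicates 1 to 4 in listed order. The labels do not say that each came from a separate animal, so the 4 samples are not counted as 4 animals. What the spread between them reflects was not tested.

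Ezh2 is the catalytic subunit of Polycomb repressive complex 2, which methylates histone H3 at lysine 27 and keeps developmental genes silent in blood progenitors. Nras-G12D is an activated RAS allele found in myeloid leukaemia. In a diploid cell, a variant on both copies of a chromosome is carried by nearly all reads, and a variant on 1 copy by an even share of them. A variant on the only remaining copy also gives nearly all reads, so homozygous and hemizygous sites cannot be told apart by the fraction. In what follows a fraction of 0.65 or more is called upper-range and a lower one lower-range.

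Replicate 3 changed from the upper to the lower range distal to Ezh2, and the sequences shown come from both sides of that change. The first 3 insertions lie proximal to it, and the insertion in Creb5 and the deletion in Pde1c lie distal to it. Each is the allele as listed by the variant file, in lower case on the plus strand of mm10, with the inserted or deleted bases in capitals; for the deletion the reference allele is shown.
Snd1 insertion at 28523816: aGCACTTACGac
Tmem209 insertion at 30505670: aCTCACTGGGcg
Akr1b7 insertion at 34421001: cACCTAGAac
Creb5 insertion at 53693870: tACCTGTTCCTGTAGAac
Pde1c deletion at 56139304: tAAAAGAggt

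A pair of promoter windows, each from 250 bases before to 50 bases after a RefSeq gene start (GRCm38.p6), is shown for the same reason: 1 lies before the change and the other after it. Both are printed 5′ to 3′ on the gene's own strand, with the reference base at the SNV in capitals. Mkln1, which encodes muskelin, has its window on the plus strand at chr6:31398578-31398877. Hoxa3, a homeobox transcription factor gene, has its window on the minus strand at chr6:52213018-52213317.
Mkln1: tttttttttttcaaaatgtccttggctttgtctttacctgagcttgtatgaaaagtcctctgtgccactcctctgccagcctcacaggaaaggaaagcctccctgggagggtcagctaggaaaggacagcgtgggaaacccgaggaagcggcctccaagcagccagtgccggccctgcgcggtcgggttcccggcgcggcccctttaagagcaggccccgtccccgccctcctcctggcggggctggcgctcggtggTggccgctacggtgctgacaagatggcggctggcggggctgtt
Hoxa3: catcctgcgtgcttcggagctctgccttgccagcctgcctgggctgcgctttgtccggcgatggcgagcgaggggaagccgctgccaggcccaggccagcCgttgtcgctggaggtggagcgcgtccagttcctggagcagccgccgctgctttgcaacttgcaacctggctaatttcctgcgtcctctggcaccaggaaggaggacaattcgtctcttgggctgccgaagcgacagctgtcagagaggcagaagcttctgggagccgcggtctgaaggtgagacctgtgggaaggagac

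Replicates 2 and 4 stood at 1.00 at the Mkln1 SNV, 31398835, and replicate 3 at 0.762; in replicate 1 it was below the minimums. At the Hoxa3 SNV, 52213217, replicate 3 stood at 0.455 and each other sample at 1.00. Replicate 3 was therefore in the upper range at the first site and in the lower range at the second, while the other samples with a call were at 1.00 at both. Of 514 promoter windows in the region, 18 held a member, and at all 43 SNV entries in them the reference base of the variant files equalled the RefSeq base. None of 13 miRNA hairpins held a member.

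Replicates 1 to 4 had 840, 823, 931 and 792 SNVs in the window (mean 846.5 ± 59.7, SD, n = 4) and 113, 119, 120 and 119 indels (mean 117.8 ± 3.2, SD, n = 4). Replicate 3 had the most SNVs, and the indel counts lay within 7 of each other. Over the whole exome the 4 samples had 34753, 32562, 31402 and 21897 SNVs at median depths of 51, 46, 54 and 54 reads. Between 28 and 52 Mb, 278 of 299 SNVs were upper-range in replicate 1, which is 93.0% (exact Clopper-Pearson 95% interval 89.5 to 95.6). The other counts were 275 of 290 in replicate 2 (94.8%, 91.6 to 97.1), 315 of 348 in replicate 3 (90.5%, 86.9 to 93.4) and 255 of 268 in replicate 4 (95.2%, 91.9 to 97.4). Over all autosomes the upper-range share was 25.0%, 24.4%, 27.7% and 53.0% in replicates 1 to 4, and since the region was picked for its share, nothing is read from the gap. The intervals count each SNV as an independent trial and so cover counting error only. Neighbouring SNVs on 1 chromosome are not independent, and 11.2% to 13.2% of the SNVs in the window came from split multi-base SpeedSeq alleles. Reads without molecular identifiers are also not independent molecules.

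**Figure D1:**
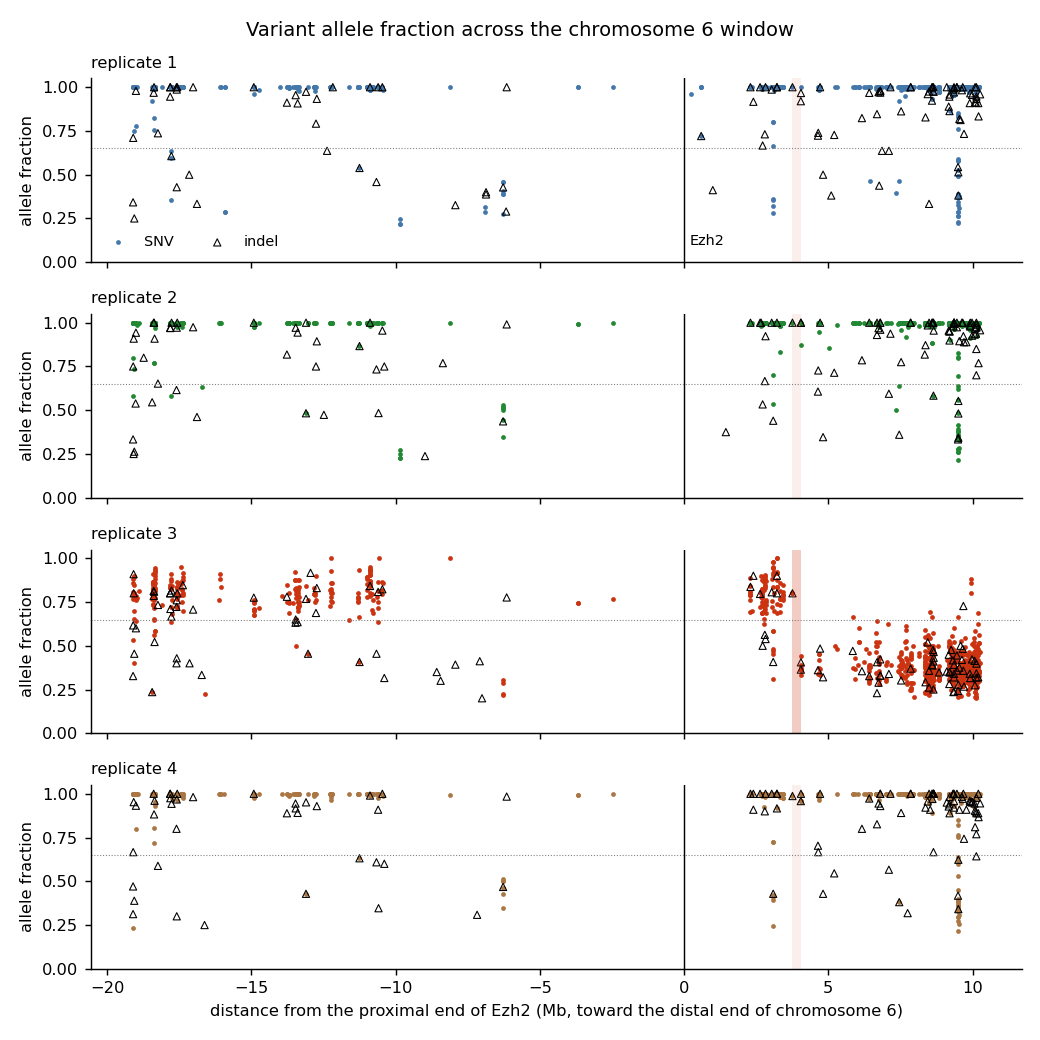
Variant allele fraction of each confident SNV (coloured dots) and indel (open triangles) against distance from the proximal end of Ezh2 in Mb, 1 panel per sample. The vertical line marks Ezh2, the dotted line the 0.65 bound and the shaded band the interval in which replicate 3 changes from about 0.80 to about 0.37; replicates 1, 2 and 4 stay near 1.00 on both sides of it.

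The samples shared the range but not the level. Before the switch of replicate 3, the SNVs nearest the bound were at 0.652 to 0.721 above it and 0.632 to 0.647 below it over the 4 samples. In replicates 1, 2 and 4 the upper-range sites sat at the top of the scale: 269, 267 and 246 SNVs between 28 and 52 Mb had a fraction of 0.95 or more. In replicate 3 only 8 did. Its median was 0.80 between 28 and 38 Mb and again 0.80 from 49 Mb up to its change of range, against 1.00 in the other 3 samples at both places. The stretch between, from 38 to 49 Mb, holds Ezh2 and had only 17, 10, 8 and 10 SNVs, with medians of 0.721, 0.523, 0.525 and 0.508 and upper-range shares of 52.9%, 40%, 50% and 40% in replicates 1 to 4; 6, 6, 4 and 6 of these SNVs were those of the T-cell receptor beta pocket described later. The lower level was not limited to the window: upper-range SNVs on the other autosomes had a median of 0.807 in replicate 3, where 9.53% reached 0.95, and of 1.00 in replicates 1, 2 and 4, where 63.7%, 64.3% and 86.8% did. Lower-range SNVs on those autosomes had a median of 0.383 in replicate 3, against 0.451, 0.462 and 0.45 in the others. What lowers both levels in replicate 3 was not tested.

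The SpeedSeq genotype reads the same sites differently. SpeedSeq gave a homozygous genotype to 94% or more of the SNVs of replicates 1, 2 and 4 in 49 Mb to the change, with values of 94.1%, 97.3% and 95.2%, but to 10.2% of those of replicate 3. In its files VarScan2 marks a site as homozygous from a frequency of 75%, and did so for 73.5% of the SNVs of replicate 3 there and 94.1%, 98.6% and 95.2% in the others. With the SpeedSeq genotype in place of the 0.65 bound, an alternative chosen after seeing the data, the homozygous share between 28 and 52 Mb was 8.91% in replicate 3 and 91.97%, 93.5% and 94.4% in replicates 1, 2 and 4. The label homozygous thus holds for replicates 1, 2 and 4 by fraction and by both callers. In replicate 3 it holds by the 0.65 bound and, for most SNVs, by VarScan2, but not by the SpeedSeq genotype.

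A switch of zygosity range was defined as the interval between the last SNV of a run of at least 5 SNVs in 1 range and the first SNV of the next such run in the other. Replicates 1, 2 and 4 had 4 switches each in the window and replicate 3 had 3. When only SNVs with a mean mapping quality of at least 50 in the variant reads were used, replicates 1, 2 and 4 had 0 switches and replicate 3 had 1. The remaining switch of replicate 3 lay between 51285512 and 51575778, 290.3 kb wide and 3.69 to 3.98 Mb distal to Ezh2. Its width was 290.3 to 290.6 kb in every alternative based on allele fraction that was run, and it was not found from the SpeedSeq genotypes, which give replicate 3 few homozygous sites on either side.

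The last SNV before the switch, 51285512, lies in the non-coding gene Gm32479. It had 82 of 82 variant reads in replicate 1, 58 of 58 in replicate 2, 68 of 85 in replicate 3 (0.80) and 77 of 78 in replicate 4. An indel 16 bases before it, at 51285496, had the same read counts in all 4 samples. Changes split from 1 multi-base SpeedSeq allele share their read counts, so the indel is not taken as a separate observation. The first SNV after the switch that was confident in all 4 samples, 51576070 in the gene body of Snx10, a sorting nexin gene, had 19 of 19, 29 of 29, 14 of 36 (0.389) and 19 of 19 variant reads. The indel at 51575816, also in Snx10, had 23 of 25, 17 of 17, 12 of 33 (0.364) and 23 of 24. At these sites replicate 3 went from 0.80 to under 0.40 across the interval, and the other samples had fractions of 0.92 or more on both sides.

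The interval holds the whole gene bodies of Nfe2l3, which encodes a basic leucine zipper transcription factor, of Hnrnpa2b1, which encodes an RNA-binding protein of pre-mRNA processing, and of Cbx3, which encodes the heterochromatin protein HP1 gamma. None of these 3 genes held a member in any sample, so the position of the switch within the interval is not known. Snx10 (51523900 to 51590679) straddles the distal edge, with 8 SNVs and 2 indels.

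**Figure D2:**
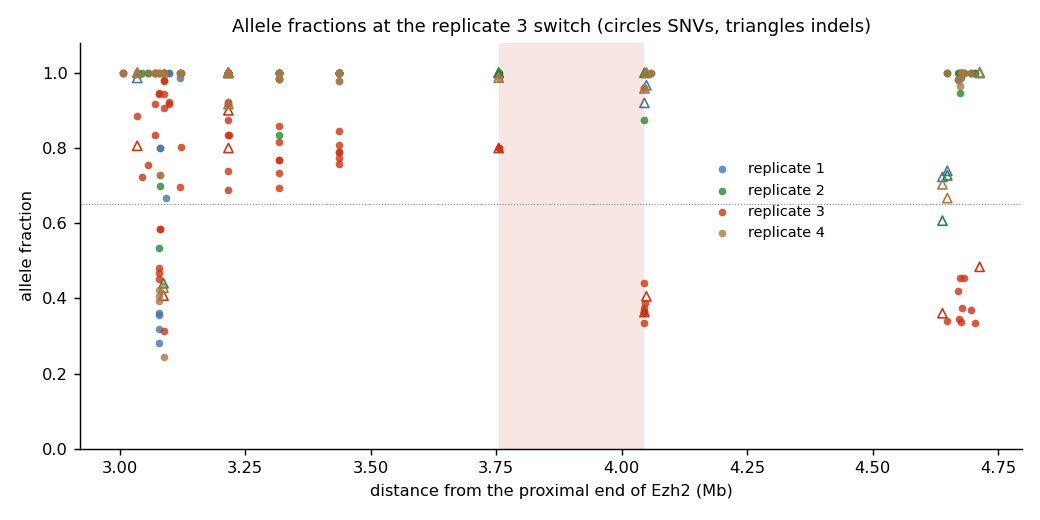
Allele fractions of SNVs (circles) and indels (triangles) of the 4 samples around the replicate 3 switch, by distance from the proximal end of Ezh2 in Mb; the shaded band is the 290.3 kb interval without an SNV in replicate 3. Replicate 3 drops from 0.80 to about 0.37 across the band, and the mixed fractions near 3.08 Mb belong to the sites around Gm8035.

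At shared sites the change can be read base by base. Between 28 Mb and the switch, 195 SNVs had a fraction of 0.95 or more in each of replicates 1, 2 and 4; 191 of them were confident in replicate 3, with a median of 0.80 and an interquartile range of 0.75 to 0.851, and 4 of the 191 were under 0.65. Beyond the switch there were 393 such SNVs, of which 371 were confident in replicate 3 with a median of 0.364 (interquartile range 0.32 to 0.402), and 368 of the 371 were under 0.65. Replicates 1 and 2 fell in the same range at 99.6% of their shared SNVs before the switch and 99.8% after it. For replicates 1 and 3 the shares were 95.8% of 261 and 2.14% of 467 SNVs. Each pair that included replicate 3 gave 95.3% to 96.6% before and 2.14% to 3.51% after, and no pair had different alleles at 1 position. At shared positions replicate 3 carried the same variant alleles as the others on both sides, at a lower median fraction.

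**Figure D3:**
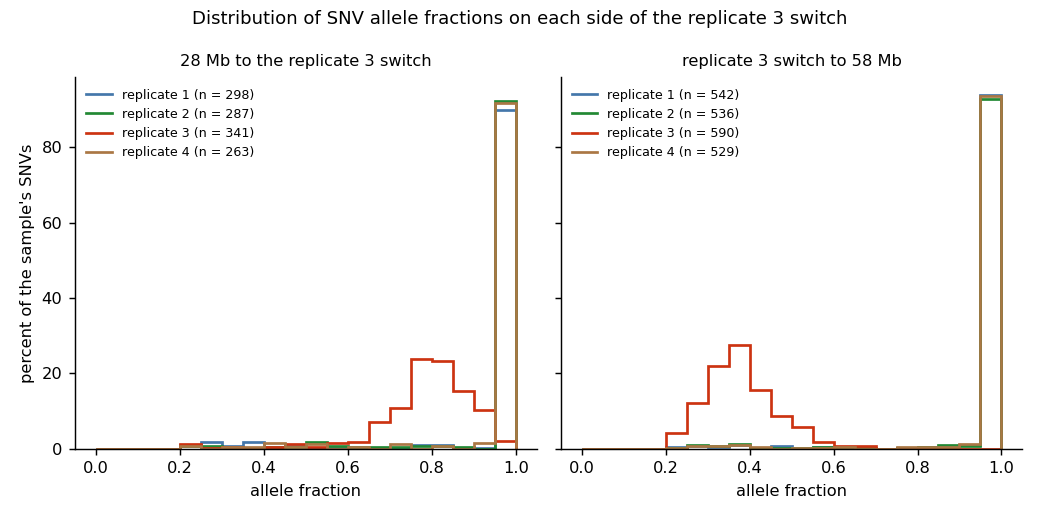
Percent of each sample's SNVs by allele fraction in steps of 0.05, from 28 Mb to the replicate 3 switch (left) and from the switch to 58 Mb (right). Replicates 1, 2 and 4 pile up in the top step on both sides; replicate 3 peaks near 0.80 on the left and near 0.37 on the right.

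The lower-range run of replicate 3 that began at 51575778 continued beyond the window to 103649248, with a median of 0.372. On the proximal side its upper-range fractions reached past the window to 7689528. Short breaks lay inside the window at 50608573 to 50610709 and outside it at 18145285 to 18145357. With mapping quality of at least 50 this upper-range stretch was a single run of 43.6 Mb, from 7689528 to 51285512. Under that minimum the other samples had a single upper-range run over Ezh2, from 28424384 to 61423052 in replicate 1 (33.0 Mb), from 24117815 to 72305981 in replicate 2 (48.2 Mb) and from 28424384 to 72305981 in replicate 4 (43.9 Mb). Proximal to these runs, all 3 were in a lower-range run that ended at 22297931 or 22343103, where replicate 3 was upper-range. That run was broken in replicate 1 by 5 upper-range SNVs at 19119632 to 19119883. The run of replicate 3 thus began and ended at lower coordinates than those of the others. Without that minimum, lower-range runs of 9, 12 and 8 SNVs in replicates 1, 2 and 4, between 58206492 and 58216057, cut off the distal part. The upper-range runs beyond them held 8, 11 and 10 SNVs, so the distal edges of these samples rest on few SNVs.

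The other switches bounded short pockets of lower-range SNVs. In replicates 1, 2 and 4 a pocket lay at 41253376 to 41253814 in the annotated T-cell receptor beta locus (Tcrb), next to the trypsinogen gene Try4. Its 6 SNVs had median fractions of 0.40, 0.507 and 0.482, and the 4 that were confident in replicate 3 had a median of 0.257. Median depth there was 4.00, 3.80, 3.24 and 3.76 times the autosomal median in replicates 1 to 4, and the median mapping quality was 47.6 to 51.5. Because SNVs are sparse there, the flanking switches were wide: the proximal one began at 37097582 in Dgki, a diacylglycerol kinase gene, in replicates 1 and 2, and at 39400456 in Mkrn1, an E3 ubiquitin ligase gene, in replicate 4. The distal one ended at 43856882 in all 3 samples. In replicate 1 the pocket began earlier, with 2 SNVs from 40614399 next to Mgam, the maltase-glucoamylase gene.

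A second pocket began between Vmn1r6, whose SNV at 57003144 was the last upper-range one, and Vmn1r7, at 57024598, and ended before 57113757 in Vmn1r10. These genes encode vomeronasal pheromone receptors of a large family of similar sequences. From 57024598 to 57071298, a stretch that covers Vmn1r7, Vmn1r8 and Vmn1r9 and sites between them, the lower-range SNVs numbered 20, 22 and 20 in replicates 1, 2 and 4, with median fractions of 0.372, 0.351 and 0.36. Their depth was 12.2, 14.4 and 13.5 times the autosomal median and their mapping quality 38.1, 37.6 and 39.5. In replicate 3 a pocket of 5 SNVs lay at 50608573 to 50610709; counting the sites up to Gm8035, replicates 1 and 4 had 4 lower-range SNVs there and replicate 2 had 1, at median mapping qualities of 25.9 to 31.3 over the 4 samples. Depth and mapping quality differed from the rest of the region at these pockets in the samples named, and their part in the fractions was not tested beyond the mapping quality minimum, under which the pockets formed no run.

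**Figure D4:**
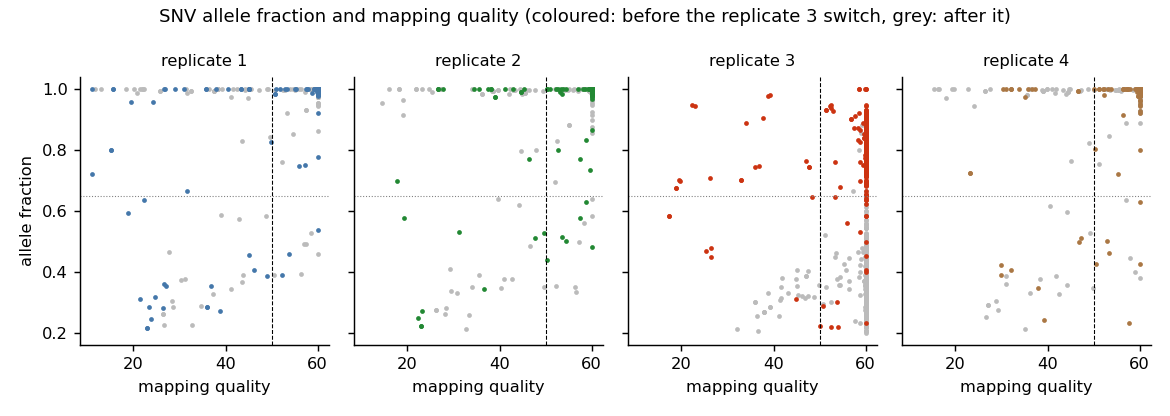
Allele fraction of each SNV against the mean mapping quality of its variant reads, 1 panel per sample, before (coloured) and after (grey) the replicate 3 switch; the dashed line marks a mapping quality of 50. Most lower-range SNVs of replicates 1, 2 and 4 lie left of the line, whereas those of replicate 3 after the switch lie mainly at 60.

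In replicates 1, 2 and 4, 35 of 44, 27 of 40 and 24 of 34 lower-range SNVs of the window had a mapping quality under 50, against 60 of 796, 56 of 783 and 48 of 758 upper-range ones. For replicate 3 after its switch, 553 of 561 SNVs with a mapping quality of at least 50 were lower-range, and its median fraction among them was 0.371. The change of range in replicate 3 was therefore as large among well-mapped SNVs as among all of them.

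Ezh2 itself held no member in any sample: SpeedSeq listed 2, 1, 0 and 0 calls in its body in replicates 1 to 4, all under a depth of 10, and VarScan2 listed 1, in replicate 4. SNVs were also sparse around it. Between 38 and 49 Mb there were 17 distinct SNVs, 1.55 per Mb, compared with 27.4 per Mb from 28 to 38 Mb, 48.3 per Mb from 49 Mb to the replicate 3 switch and 108.8 per Mb from the switch to 58 Mb. The sparse stretch is not poor in genes. It holds the starts of 140 protein-coding genes, of which 2 held an SNV, compared with 28 of 75, 7 of 15 and 58 of 77 in the other stretches. These stretches were drawn after the values were seen. The variant lists give no depth at sites without a variant, so a site without coverage and a site that matches the reference cannot be told apart.

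**Figure D5:**
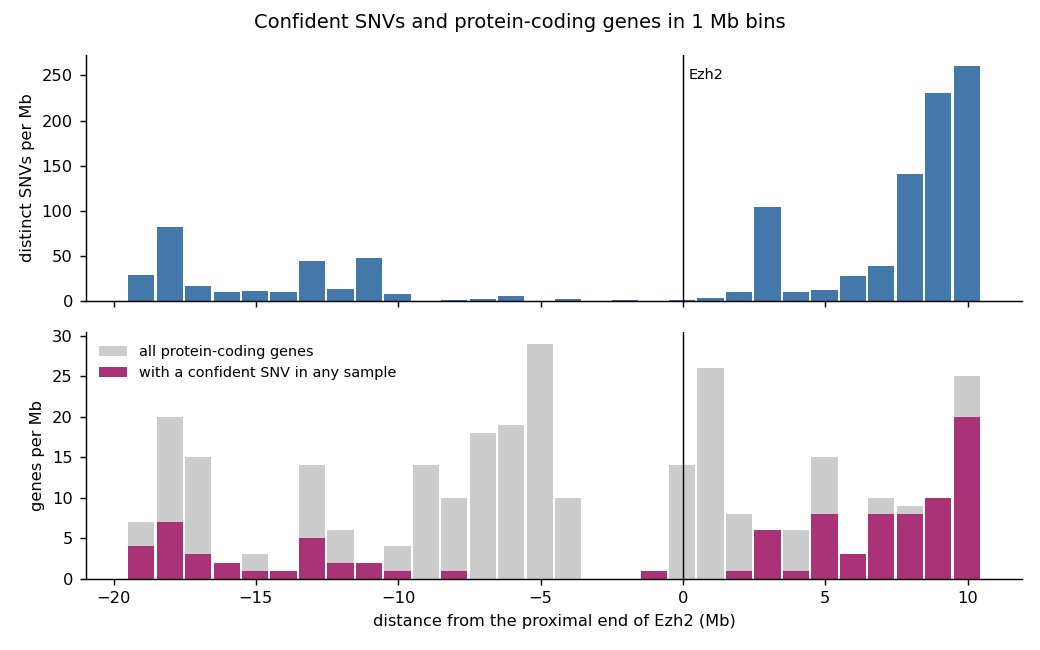
Distinct confident SNVs (top) and protein-coding genes by the midpoint of the gene body (bottom; purple, genes with an SNV in any sample) in 30 bins of 1 Mb, by distance from the proximal end of Ezh2. The bin that begins 9.47 Mb distal holds the most SNVs, 260, and the bin with the most genes, 29, holds no SNV.

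The nearest proximal SNV to Ezh2 was at 45060279 in Cntnap2, a neurexin-family gene, 2.47 Mb away in all 4 samples. It had 68 of 68 variant reads in replicate 1, 58 of 58 in replicate 2, 43 of 56 (0.768) in replicate 3 and 47 of 47 in replicate 4. The nearest distal SNV was at 47778211 in replicate 1 (23 of 24 reads), 0.183 Mb from the gene in that sample, at 49800256 in replicates 2 and 3 with fractions of 1.00 and 0.889, and at 49827510 in Npy, the neuropeptide Y gene, in replicate 4 with a fraction of 1.00. The nearest SNVs on both sides of Ezh2 were upper-range in every sample. Closer than the nearest distal SNV of replicate 2, an indel at 48976829 in Doxl2 was lower-range in that sample alone (6 of 16 reads), and replicate 1 alone had one at 48523886 in Zfp862-ps (7 of 17 reads). The span between the nearest SNVs was 2.72 Mb in replicate 1 and 4.74 to 4.77 Mb in the others, so zygosity at Ezh2 is read from flanking sites and not from the gene. The nearest proximal indel, an insertion in the trypsinogen gene Prss3 at 41377468, had fractions of 1.00, 0.991, 0.776 and 0.984.

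Replicate 3 departed from its level of 0.80 at Mkrn1. The SNV at 39400456 had 193 of 193, 162 of 162, 177 of 177 and 164 of 165 variant reads, so all 4 samples stood at 0.99 or more. It was the deepest of the 8 SNVs at 0.95 or more in replicate 3 before the switch, and was singled out after its value was seen. The adjacent pair at 43856882 and 43856883 in the pseudogene Gm7783 had a fraction of 0.747 in replicate 3 and 0.99 or more in the others.

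Genes with the most SNVs lay mainly beyond the switch. Pde1c, a calmodulin-dependent phosphodiesterase gene, led with 92 distinct SNVs, followed by Itprid1 with 72, Herc6, a HECT-domain ubiquitin ligase family gene, with 60, Rbm28, an RNA-binding protein gene of ribosome assembly, with 34, and Fkbp9, a prolyl isomerase gene, with 30. Avl9 and Nt5c3, a pyrimidine nucleotidase gene, had 27 each, and Chn2, which encodes the Rac-inactivating beta-chimaerin, had 25. In replicates 1, 2 and 4 the median of each of the 8 was 1.00. In replicate 3 the 7 genes beyond the switch had medians of 0.345 (Herc6) to 0.412 (Nt5c3), and Rbm28, at 29123573 to 29164724, had 0.824. Pde1c shows the extent of it: 68, 69, 82 and 64 SNVs were confident in replicates 1 to 4, of which 0, 1, 81 and 0 were lower-range.

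The Hoxa cluster, homeobox genes that control body pattern and blood progenitor programs, lies wholly beyond the switch. Of 12 listed genes, 5 held an SNV (41.7%), beside 95 of all 308 protein-coding genes of the window (30.8%). Hoxa3 had 6 SNVs with medians of 1.00, 1.00, 0.36 and 0.992 in replicates 1 to 4. Hoxa5 and Hoxa6, whose bodies overlap that of Hoxa3 so that a site can count for more than 1 gene, had 2 each with medians of 0.40 and 0.357 in replicate 3. The single SNV in Hoxa9 had fractions of 1.00, 1.00, 0.368 and 1.00. In the named members, replicate 3 was the only lower-range sample.

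Among 24 signalling and blood genes, a list drawn for RAS-pathway and related genes, 7 held an SNV (29.2%), near the 30.8% of all coding genes of the window. Smo, the Hedgehog pathway receptor component, had 11 distinct SNVs with medians of 1.00, 1.00, 0.795 and 1.00. Creb5, a CREB-family transcription factor gene, had 10, with 0.429 in replicate 3 and 1.00 in the others. Mkln1 had 5, with 0.858 in replicate 3, and Bpgm, which makes the red-cell metabolite 2,3-bisphosphoglycerate, had 4, with 0.608 from 2 SNVs in replicate 3; both had 1.00 in the others. Smo, Mkln1 and Bpgm lie before the switch and Creb5 after it.

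Of 7 polycomb and chromatin genes in the window, 1 held an SNV (14.3%, beside 30.8% of all coding genes): Jazf1, which encodes a zinc finger partner of histone acetyltransferase complexes, with fractions of 1.00, 0.985, 0.48 and 1.00. Kdm7a, a histone demethylase gene, held 1 indel and no SNV. Both Kdm7a and Ezh2 lie between 38 and 49 Mb, where 2 of 140 coding genes (1.43%) held an SNV. Cbx3 and Hnrnpa2b1, also on this list, lie in the switch interval of replicate 3. Of 53 taste, olfactory and vomeronasal receptor genes, 17 held an SNV (32.1%, near that share), all of them Vmn1r genes. Vmn1r13, with 13 SNVs, had medians of 1.00, 0.998, 0.324 and 1.00, whereas Vmn1r7, also with 13, had 0.376, 0.39, 0.315 and 0.388. Of the SNVs in Vmn1r7, the 10 from 57024598 to 57024953 formed the lower-range run of replicates 1, 2 and 4, and the rest lay outside that run. Vmn1r20, with 9, had 0.997 to 1.00 in replicates 1, 2 and 4 and 0.356 from 2 SNVs in replicate 3. In Vmn1r8, with 12, the medians were 0.679, 0.68, 0.406 and 0.765. The 8 Gimap GTPase genes of lymphocyte survival, the 10 listed zinc finger genes and 8 genes with Prss or Try symbols held no SNV. Of the last, 2 held an indel, Prss3 and Try10. Of 8 listed coding genes at and around Ezh2, with Ezh2 itself counted, Cntnap2 alone held an SNV. Apart from 1 zinc finger gene, all genes of these 4 lists lie between 38 and 49 Mb, where 2 of 140 coding genes (1.43%) held an SNV, so their low counts are not particular to the lists.

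In replicate 3, indels found in all samples changed level across the switch as its SNVs did. Of 182 indels, 91 were insertions and 91 deletions; 93 were 1 base long, 32 had a length that is a multiple of 3, and the longest was 27 bases. Gene bodies held 146 of them. Among the 69 indels confident in all 4 samples, the 27 before the switch had median fractions of 0.986, 0.971, 0.775 and 0.975 in replicates 1 to 4, and the 42 after it 0.967, 0.985, 0.352 and 0.958. The medians of the SNVs confident in all 4 samples were 0.799 and 0.362 in replicate 3. Over all confident indels before the switch, shared or not, the median of replicate 3 was 0.711 and 57.6% were upper-range, below the 0.80 and 92.4% of its SNVs.

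The insertions printed for Snd1, a Tudor-domain nuclease gene, Tmem209, a nuclear envelope protein gene, and Akr1b7, an aldo-keto reductase gene, had fractions of 0.60, 0.707 and 0.768 in replicate 3, and of 0.932 to 1.00 in the others. Of these, the Snd1 insertion of 9 bases fell just under the 0.65 bound, with 39 of 65 reads. After the switch, the Creb5 insertion of 15 bases had 14 of 17, 22 of 28, 11 of 31 and 12 of 15 variant reads. The 6-base deletion in Pde1c had 48 of 48, 29 of 29, 12 of 31 and 33 of 34. Replicate 3 was the lowest sample at each of these 5 indels. Other indels named by the length rule were in Dgki, Chn2, Tspan33 and again Pde1c; in replicate 3 they had 0.823 and 0.80 before the switch (Dgki, Tspan33) and 0.23 and 0.476 after it (Chn2, Pde1c).

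Most SNVs were found in more than 1 sample. Of the 1125 SNVs, 590 (52.4%) were confident in all 4 samples, 166 in 3, 159 in 2 and 210 in 1; of the 182 indels the counts were 69, 30, 22 and 61. The SNVs confident in 1 sample numbered 41, 38, 104 and 27 in replicates 1 to 4, and 39, 35, 102 and 25 of them were listed in another sample below the minimums. Replicate 3 had the most such SNVs, 66 lower-range and 38 upper-range, from both sides of its switch. Their median fraction of 0.495 thus mixes both ranges. In the other samples the median was 1.00. Most sites confident in 1 sample were thus also listed elsewhere.

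Depth, which the selection used only as a minimum of 10, and the type of base change, which it did not use, were compared with the other autosomes. The median depth of SNVs in the window divided by that on the other autosomes was 1.077, 1.087, 0.982 and 1.037 in replicates 1 to 4. The mean log2 ratio was 0.063 ± 0.067 (SD, n = 4; exact two-sided sign-flip permutation test, p = 0.25), and it was above 0 in 3 of 4 samples. Transitions were 66.3%, 67.4%, 68.2% and 68.1% of the SNVs in the window, lower than on the other autosomes in all 4 samples, by a mean of -1.95 ± 0.835 percentage points (SD, n = 4; exact two-sided sign-flip permutation test, p = 0.125). With 4 samples 0.125 is the smallest p this test can give, so neither measure could pass a threshold of 0.05. Pairs of samples shared 66.5% to 73.6% of the SNVs found in either, and a shared SNV has the same base change in both. The 4 transition shares are therefore not independent, and their common direction is not replication. At the 590 SNVs confident in all samples, depth relative to the autosomal median was 1.27, 1.28, 1.42 and 1.24 times as high after the switch as before it. Replicate 3 was the highest of the 4, and the difference between samples was not tested.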

How the data were processed

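Per the labels' protocols, exomes were captured with an Agilent SureSelect mouse kit and sequenced on a BGISEQ500 with paired reads of 100 bases. Per the file headers, the authors called variants with freeBayes 0.9.21, run through SpeedSeq on mm10 for each sample alone, and deposited a Phred-scaled quality score for each. VarScan2 tables, also deposited, give reference and variant reads and a frequency; no source used here states its version, the aligner or how duplicates were handled. Builds mm10 and GRCm38 are named in the submitters' processing notes.

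Members needed a depth of 10, 3 variant reads and a fraction of 0.10 or more in both callers at 1 position and allele, and in SpeedSeq a quality of 20 or more. Multi-base SpeedSeq alleles were split into single changes, and the fraction printed is variant reads over depth in SpeedSeq. VarScan2 lists no site under 20%, so lower fractions are out of reach. Gene bodies, promoters and miRNAs are from RefSeq (GRCm38.p6); exon structure was not used here. The run finder was tested on simulated data. Python 3.11.15, pandas 2.3.3 and scipy 1.17.1 were used.

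Genes were named by rule: Ezh2, the nearest genes with an SNV on each side, genes at switches, the 8 with the most SNVs, up to 10 with an indel in all samples, longest first, and up to 4 members of each list with the most sites; 1 indel that meets the rule is not reported here. Members and lists were chosen with earlier results of these data known. Alternatives were single callers, a depth of 20, a quality of 100, a mapping quality of 50, leaving out calls within 10 bases of another, bounds of 0.60 and 0.70, runs of 3 and 10 SNVs, leaving out each sample and, chosen after seeing the data, SpeedSeq genotypes and single-base records only.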

Additional observations from a re-analysis of the deposited data

Results flagged for a closer look

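In groups of 4, a sample was listed when its gap to the nearest other sample exceeded Dixon's 95% critical share of the range; chance does this in about 1 of 20 groups. Of 16 quantities examined, 10 had such a sample, and many of them share the same sites. This is a description and not a test, since the window was chosen by these fractions; where the other 3 samples tie, as at a median of 1.00 or at 4 switches, any departure is listed. In replicate 3 the median SNV fraction was 0.80 from 28 to 38 Mb, 0.80 from 49 Mb to its switch and 0.368 after it, each below the other 3 samples. Its share of SNVs with a homozygous SpeedSeq genotype was 8.51%, 10.2% and 0% in the same stretches. The median fraction of indels confident in all samples was 0.775 before the switch and 0.352 after it in replicate 3. Replicate 3 had 3 switches where the others had 4. Replicate 1 had 113 indels where the others had 119 to 120.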

How the results depend on the processing

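The replicate 3 switch was found at the same place, within 0.3 kb in width, under all 11 alternatives based on allele fraction, and not with SpeedSeq genotypes. The mean number of switches per sample, 3.75 as reported, was 0.25 with a mapping quality of at least 50, 7 with VarScan2 alone, 9.25 with runs of at least 3 SNVs and 1.75 with runs of at least 10. The mean upper-range share, 93.4%, was 96.6% with that mapping quality, 79.7% with VarScan2 alone and 72.2% with SpeedSeq genotypes. The share of sites found in all samples, 50.4%, was 66.2% with SpeedSeq alone, 44.1% with VarScan2 alone, 56.9% with a depth of 20 and 53.8% with single-base records. When any 1 sample was left out, the share found in all remaining samples was 55.6% to 60.5%. A share over fewer samples cannot fall below that over all 4 samples, so this rise is fixed by the way it is counted. The mean log2 depth ratio, 0.063, turned to -0.119 with SpeedSeq alone and -0.0049 with a quality of at least 100. The SNV count in Chn2 fell from 25 to 16 with a depth of 20. Apart from the rise with a sample left out, the causes were not tested. The other 67 of 84 values kept their direction; among them, counts stayed within 1.5 times and shares within 1 SD or their 95% interval. The tests were held to direction only: the log2 depth ratio reached 0.157 with a mapping quality of 50 and fell to 0.0237 with a depth of 20, and the transition difference, -1.95, was -3.76 and -3.56 under these and -1.01 with VarScan2 alone; no p went below 0.125. No paired analysis was possible because the 4 samples form 1 group. Sites under a depth of 10, most of those listed around Ezh2, were out of reach.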
